A study of Panax notoginseng with 12 samples.

Results

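Roots of Panax notoginseng (sanqi) given ammonium were compared with roots not given it, by pooling the 2 treatments that contained ammonium (15A and 15AN, 6 libraries) against the 2 that did not (15N and the control CK, 6 libraries). The members are the assembled loci whose 6 libraries with ammonium all lay on one side of the 6 without. Of 146330 loci in the deposited table, 58721 were above 0 in at least 1 library. A mean of 5 FPKM (fragments per kilobase, scaled for the size of the library) in at least 1 group was reached by 22592. Of these 22592 loci, 991 did not overlap (4.39%), with 621 higher (2.75%) and 370 lower (1.64%) in roots with ammonium.

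P. notoginseng is a medicinal herb of the ginseng family, grown for the triterpene saponins of its root. Plant roots take up ammonium through AMT transporters, join it to glutamate with glutamine synthetase, and pass the amide nitrogen on through glutamate synthase and asparagine synthetase. Unlike nitrate, ammonium enters as a cation and needs no reduction. A high ammonium supply is known to slow root growth in many species, with changes in cation uptake, in the pH around the root and in redox state.

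The groups were 15A (15 mM ammonium), 15AN (15 mM ammonium with 15 mM nitrate), 15N (15 mM nitrate) and CK, to which no nitrogen was added, each with 3 root libraries. According to the methods, seedlings were kept in hydroponic pots and the roots were harvested on day 3. The methods give ammonium as the sulfate in 15A and as ammonium nitrate in 15AN, and nitrate alone as the calcium salt, so sulfate and calcium differ among the groups beside nitrogen and cannot be told apart from it. The methods give hydroponic solutions as those of the sand culture, in which all groups, CK included, also had potassium, calcium and magnesium sulfates and dicyandiamide, an inhibitor of nitrification. All groups were kept beforehand in a full nutrient solution that held a little ammonium nitrate. The GEO labels describe the plants as days-old seedlings without treatment, whereas the methods describe older seedlings; the labels' treatment field gives the nitrogen form. The RNA that went into the libraries had been pooled, and nothing states that the 3 libraries of a group came from separate pots. The p-values therefore rest on libraries and cannot be taken to measure the spread between pots. In bulk roots, less RNA per cell and fewer cells of a type cannot be told apart.

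The deposited values hold no read counts. Summed FPKM per library was 2042250 to 2593466 in 15A and 1776098 to 1800638 in 15AN, against 1420310 to 1517711 in CK and 2002096 to 2174581 in 15N, and the 10 most abundant loci held 15.1% to 26.9% of it. Loci above 0 numbered 40102 to 44163 per library. Log2 values of libraries within a group correlated at r = 0.92 to 0.96. The next sums are over all loci of a list, tested or not. The 61 loci described as markers of root tissue (27 tested) were Casparian strip proteins, root hair and root cap genes. They summed to 677 to 848 FPKM with ammonium and 654 to 775 FPKM without. The 266 loci of photosynthesis (42 tested) summed to 891 to 2445 FPKM with ammonium and 1044 to 1695 FPKM without. The 284 loci of histones, cyclins and replication (100 tested) summed to 4962 to 6394 FPKM with ammonium and 4896 to 6009 FPKM without. These ranges overlap, and the part of these markers in the results was not tested. The highest sums were of 15A replicate 1, which stood apart from its group. It had 2445 FPKM for photosynthesis loci against 1053 and 1043 FPKM in the other 15A libraries. For the 377 cytosolic ribosomal protein loci (225 tested) it had 54025 FPKM against 36305 and 35954 FPKM. Without this library 207 loci were called higher and 223 lower in the comparison of ammonium, and 764 and 540 did not overlap. Where leaving it out ended the call of a locus described here, this is said with the values.

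Which loci moved with ammonium, whether or not nitrate was present, was asked with 1 linear model of log2(FPKM + 1) with terms for ammonium and nitrate. Differences are given with the standard error (SE) of this fit over the 12 libraries. The fit has no term for an ammonium difference that varies with nitrate. Such variation therefore adds to its SE and adjusted p, beside the spread between libraries. A locus was called where the limma adjusted p was under 0.05 and the log2 difference over 1 in size. There were 231 loci called higher (1.02%) and 232 called lower (1.03%). With 4 group means in the fit instead, 442 were called higher and 469 lower. The adjusted p alone was passed by 1363 higher (6.03%) and 919 lower loci (4.07%). Of the 991 loci that did not overlap, 896 passed the adjusted p and 216 were called (0.956%; 117 higher, 0.518%, and 99 lower, 0.438%). Since the contrast that gives these differences also chose the members, the values of the members are a description. The median log2 difference was 0.50 over the higher members and -0.65 over the lower ones, beside 0.04 over all loci tested.

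The ammonium difference was also taken at each nitrate level, in comparisons that share no library. Between 15A and CK, 1693 loci were called higher (7.49%) and 1540 lower (6.82%). Between 15AN and 15N, 632 were called higher (2.8%) and 766 lower (3.39%). Only 77 loci were called higher in both (0.341%) and 79 lower in both (0.35%), while 409 were called in both with opposite signs (1.81%). Across all loci tested the differences had the same sign in 9204 (40.7%), with r = -0.19 across genes, which are not independent replicates. The interaction, which is the difference between these differences, was called in 5093 loci (22.5%), and in 109 of the 991 members. Among the members, 107 were called in both comparisons, 153 only in 15A, 61 only in 15AN and 670 in neither, and 325 had the larger difference in the presence of nitrate.

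**Figure D1:**
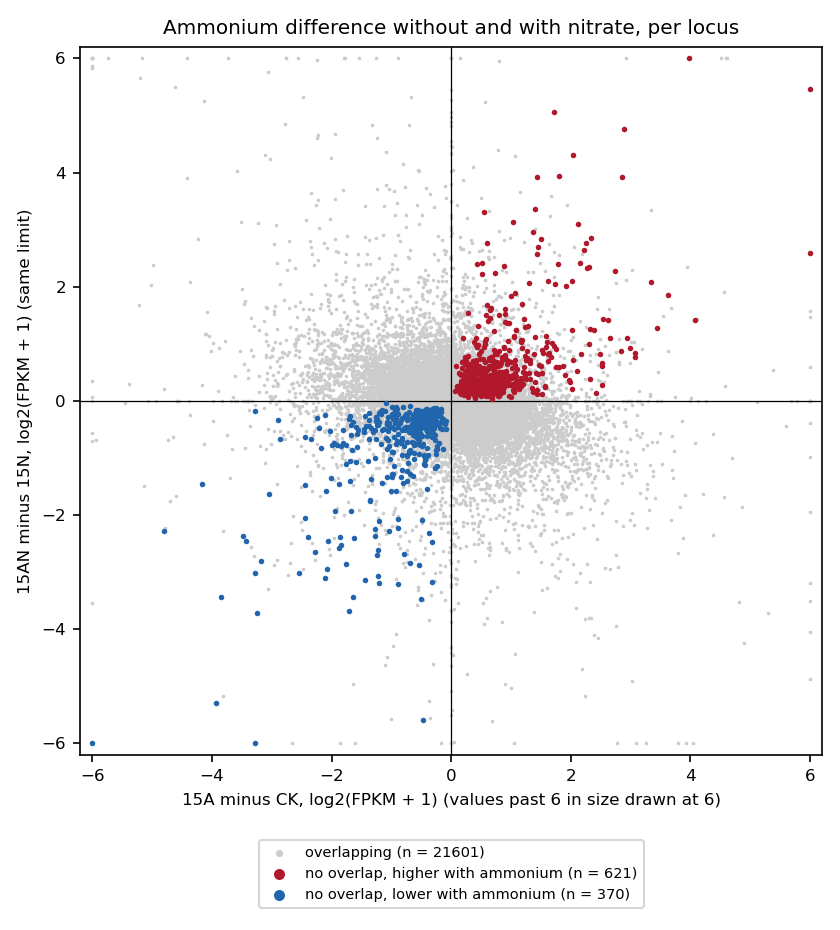
Difference of 15A minus CK (x axis) against 15AN minus 15N (y axis), both in log2(FPKM + 1), for the 22592 loci tested, each point 1 locus. The 621 higher members (red) lie in the upper right and the 370 lower members (blue) in the lower left, while most other loci (grey) have opposite signs on the axes.

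The scaling of the libraries bears on the count of members more than on the largest differences. The libraries differed in summed FPKM, and dividing each by its total left 255 higher and 469 lower loci without overlap, with the median of all loci at -0.16 on the log2 scale, and kept 353 of the 984 members still tested. Median-of-ratios scaling gave 613 higher and 379 lower, and quantile normalization 568 higher and 451 lower. Of the 991 members, 336 lacked overlap under each of the 4 scalings (147 of the 621 higher and 189 of the 370 lower). Such loci are said here to hold under every scaling. The next list covers only members described here, and leaves out those named under the rule below but not described. Beside those for which it is said with their values, the ones that overlapped when libraries were scaled to equal totals were XLOC_028859, XLOC_032221, XLOC_042187, XLOC_042418, XLOC_044440, XLOC_056163, XLOC_058369, XLOC_067474, XLOC_069201, XLOC_070031, XLOC_086221, XLOC_093743, XLOC_111174, XLOC_115819, XLOC_116563, XLOC_122308, XLOC_140279, XLOC_144849, XLOC_145981 and XLOC_026180.

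**Figure D2:**
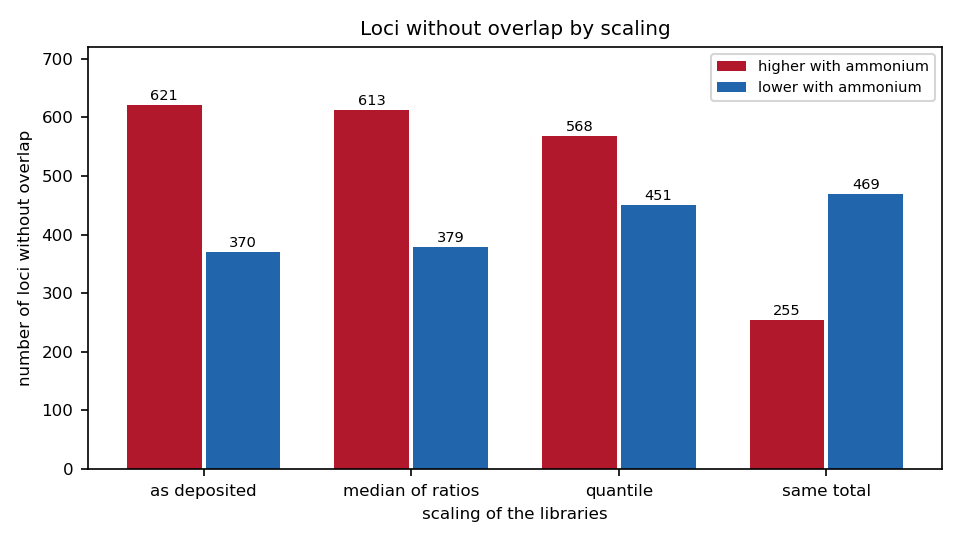
Number of loci without overlap between the 6 libraries with ammonium and the 6 without (y axis) under 4 scalings of the libraries (x axis), red for higher and blue for lower with ammonium. Higher loci outnumber lower ones as deposited (621 against 370), and the order turns round when each library is scaled to the same total (255 against 469).

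The named members are the 12 described loci with the largest difference in each direction among those that averaged 20 FPKM or more in some group, with the leading members of each gene list. All 24 of these largest differences were called, 21 of them held under every scaling, and 15 had an interaction adjusted p under 0.05, so that their size differed with nitrate. In 14 of the 24 the difference was over 1 in size at both nitrate levels. Among the 140 loci named under the rule for naming, the pooled difference of the 44 called loci kept its sign under every alternative tried. Of the 116 named members 1 changed sign under 1 alternative (XLOC_067474, 0.17 as deposited and -0.003 with equal library totals), and of the 24 other named loci 8 did under some alternative, with no adjusted p under 0.05 where they did.

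**Figure D3:**
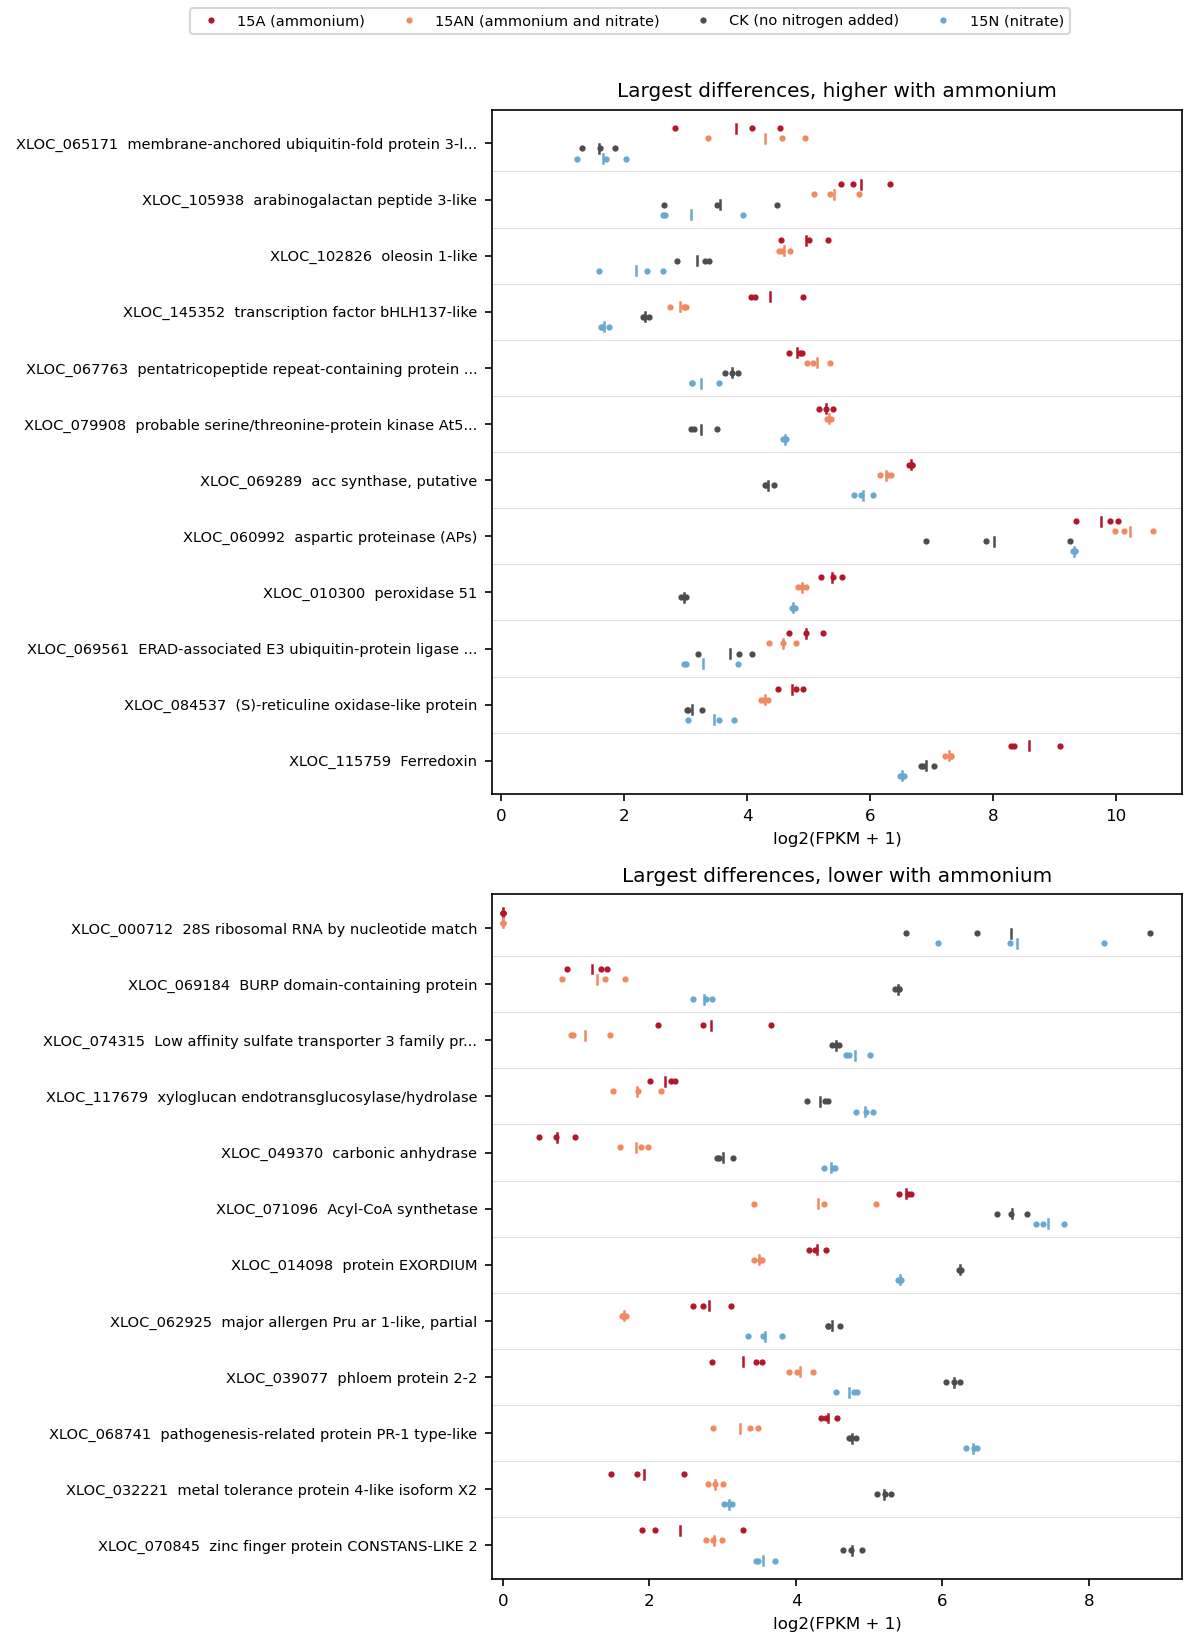
Values of the 24 described members with the largest differences, in log2(FPKM + 1) (x axis), 12 higher with ammonium (upper panel) and 12 lower (lower panel). Each dot is 1 library, and each short bar is the mean of a group, with 15A and 15AN drawn above CK and 15N. In every row the red and orange dots lie wholly to one side of the grey and blue dots.

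Genes of ammonium uptake showed no locus without overlap among the 4 tested AMT loci. XLOC_036487, described as ammonium transporter 1 member 1, had 26 to 31.5 FPKM (median 27.1) in the 6 libraries with ammonium, against 24.4 to 37.2 FPKM (median 29.6) in the 6 without. Its log2 difference was -0.08 ± 0.11 (SE, adjusted p = 0.68), and the groups overlapped. XLOC_029314, an ammonium transporter 3 member 1, had 11.5, 12.3 and 9.33 FPKM in 15A against 1.72, 1.46 and 1.14 FPKM in CK, and 9.13, 9.04 and 8.68 FPKM in 15AN against 9.18, 6.51 and 12.1 FPKM in 15N. CK alone was low for this transporter, so the difference was 2.3 (adjusted p = 4.8e-06) in 15A against CK and -0.01 (adjusted p = 0.99) in 15AN against 15N, with an interaction adjusted p of 5.5e-05. The other abundant AMT locus, XLOC_119887, lay between 4.94 and 12.5 FPKM (median 9.5) with ammonium, against between 5.56 and 9.22 FPKM (median 6.73) without, and its groups overlapped.

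Of the 19 tested loci for glutamine and glutamate synthesis, 1 did not overlap (5.26%, beside 4.39% of all loci tested). XLOC_057256, a plastid glutamine synthetase, which joins ammonium to glutamate, had 8.62 to 11.4 FPKM (median 9.28) in the 6 libraries with ammonium, against 13 to 16.9 FPKM (median 15.2) in the 6 without. All 6 libraries with ammonium were below those without, under every scaling, with a log2 difference of -0.60 ± 0.08 (SE, adjusted p = 0.002) and nearly equal differences of -0.56 in 15A against CK and -0.63 in 15AN against 15N. XLOC_131375 and XLOC_140471, also described as chloroplast glutamine synthetase, overlapped. XLOC_131375 had group means of 22.2 FPKM in 15A against 7.21 FPKM in CK, and 12.4 FPKM in 15AN against 18.5 FPKM in 15N. The pooled difference was 0.48 (adjusted p = 0.38) for XLOC_131375 and -0.40 (adjusted p = 0.29) for XLOC_140471. Cytosolic glutamine synthetase, XLOC_011567, overlapped, and the sign of its difference turned with nitrate. This difference was 0.43 (adjusted p = 1.9e-04) in 15A against CK and -0.71 (adjusted p = 2.2e-05) in 15AN against 15N. The NADH-dependent glutamate synthase loci XLOC_097847 and XLOC_097848 lie on the same stretch of scaffold, so their values are not independent. XLOC_097848 had 143, 193 and 193 FPKM in 15A against 65.1, 66 and 66.5 FPKM in CK, and 119.7, 130.4 and 128 FPKM in 15AN against 164, 151 and 143 FPKM in 15N. It was higher than CK in every other group, and its differences were 1.4 (adjusted p = 4.2e-06) in 15A against CK and -0.27 (adjusted p = 0.092) in 15AN against 15N.

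In the list of asparagine and GABA metabolism 2 of 28 tested loci did not overlap (7.14%, beside 4.39% of all loci tested). XLOC_137191, described as asparagine synthetase 3, which moves amide nitrogen from glutamine to aspartate, ranged from 12.6 to 16.1 FPKM with ammonium (median 14.4), against 19.9 to 24.2 FPKM without (median 22.1). It was lower in all libraries with ammonium under every scaling (-0.59 ± 0.07 (SE, adjusted p = 9.7e-04)). XLOC_116164, a mitochondrial aspartate aminotransferase, lay between 15.9 and 22 FPKM (median 19.2) with ammonium, against between 13.2 and 14.6 FPKM (median 13.9) without, a log2 difference of 0.42 ± 0.08 (SE, adjusted p = 0.0065). The higher level of this aminotransferase did not hold under every scaling.

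Amino acid and peptide transporters had 4 of 39 tested loci without overlap (10.3%, beside 4.39% of all loci tested), 3 of them lower. XLOC_142744, amino acid permease 3, a proton-coupled importer of amino acids, had 1.8 to 7.98 FPKM (median 4.31) in the 6 libraries with ammonium, against 11 to 20.9 FPKM (median 15) in the 6 without. It was called lower (-1.66 ± 0.16 (SE, adjusted p = 2.1e-04)), and the difference was -1.21 in 15A against CK and -2.1 in 15AN against 15N. Oligopeptide transporter 3, XLOC_048519, which in Arabidopsis carries copper and bears on iron signalling, ranged from 7.04 to 9.84 FPKM with ammonium (median 7.5), against 9.97 to 24.4 FPKM without (median 17.7). Its log2 difference was -1.0 ± 0.16 (SE, adjusted p = 0.0038). XLOC_139313, a putative amino acid transporter, was lower as well (-0.91, adjusted p = 9.7e-04), whereas XLOC_072086, a proton-coupled amino acid transporter 3, was higher (0.41, adjusted p = 0.015). The 3 lower transporters held under every scaling and the higher one did not.

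Nitrate transport and reduction gave little in the pooled comparison. None of the 22 tested loci of the nitrate and peptide transporter family lacked overlap. The abundant NRT1/PTR FAMILY 5.2 locus XLOC_048677 lay between 42.4 and 49.3 FPKM (median 44.9) with ammonium, against between 45.8 and 50.9 FPKM (median 47.6) without, so the groups overlapped. XLOC_006099, NRT1/PTR FAMILY 4.3, differed by 0.69 (adjusted p = 4.5e-05) in 15A against CK and -0.08 (adjusted p = 0.51) in 15AN against 15N, with 15A above the other 3 groups. In nitrate and nitrite reduction 1 of 6 tested loci did not overlap (16.7%, beside 4.39% of all loci tested). This was the root isozyme of ferredoxin-NADP reductase, XLOC_026180, which supplies reduced ferredoxin to nitrite reductase and glutamate synthase in roots. Its values were 62.1 to 71.5 FPKM (median 66.4) in the 6 libraries with ammonium, against 50.3 to 57.6 FPKM (median 55) in the 6 without. The difference was 0.28 ± 0.06 (SE, adjusted p = 0.018), under the fold used for a call. A ferredoxin locus, XLOC_115759, the electron carrier such enzymes use, ranged from 148 to 546 FPKM with ammonium (median 236), against 89.1 to 130.5 FPKM without (median 103). It was called higher (1.22 ± 0.19 (SE, adjusted p = 0.0031)), the larger difference being without nitrate (1.67 in 15A against CK and 0.76 in 15AN against 15N), and it overlapped under some other scaling.

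**Figure D4:**
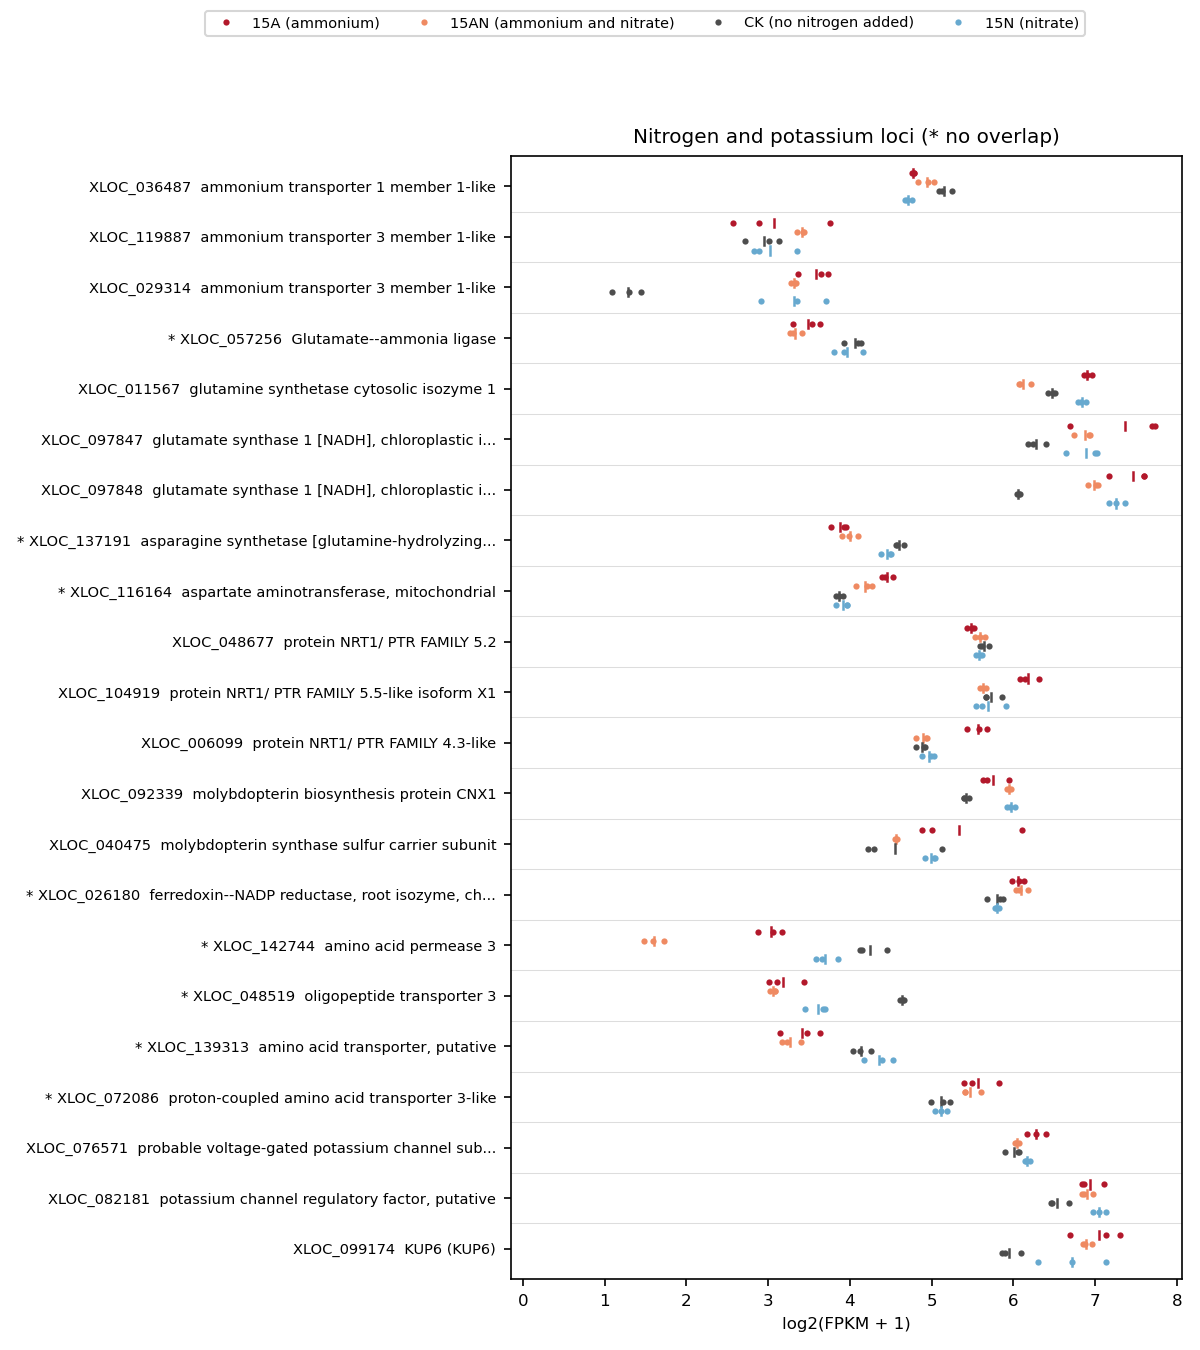
Values of nitrogen and potassium transport and assimilation loci in log2(FPKM + 1) (x axis), each dot 1 library and each short bar a group mean, with 15A and 15AN above CK and 15N in each row. Loci marked with a star do not overlap, among them glutamine synthetase XLOC_057256 and amino acid permease XLOC_142744, both lower with ammonium, while ammonium transporter XLOC_029314 is low in CK alone.

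Of the 45 gene lists, sulfate and glutathione metabolism had the highest share of lower members (10.9% of its tested loci). Plants take up sulfate through SULTR transporters, activate it with ATP sulfurylase, reduce it with adenylylsulfate reductase, and fix the sulfide in cysteine. Of 55 tested loci of sulfate and glutathione metabolism, 2 did not overlap on the higher side and 6 on the lower (14.5%, beside 4.39% of all loci tested), with a median log2 difference of -0.10 over the list. Roles within the list were assigned by words in the descriptions. Among the 9 sulfate transporters 2 were lower and none higher. Among the 8 loci of sulfate activation and reduction 2 were lower and 1 higher, and among the 15 of cysteine synthesis 1 was lower. The list was chosen with results of these data known. According to the methods, all solutions held sulfate in other salts, and the nitrogen salt of 15A added more, whereas that of 15AN did not.

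XLOC_074315, a low affinity sulfate transporter 3 at scaffold22936:184126-185468, had 0.905 to 11.7 FPKM (median 2.55) in the 6 libraries with ammonium, against 21.6 to 31.1 FPKM (median 23.9) in the 6 without. No library with ammonium reached those without, and the transporter was called lower (-2.7 ± 0.37 (SE, adjusted p = 0.0017)). Its difference was -1.71 (adjusted p = 0.0012) in 15A against CK and -3.69 (adjusted p = 2.7e-05) in 15AN against 15N, with an interaction adjusted p of 0.0044. XLOC_064835, adenylylsulfate reductase 3, the step at which sulfate reduction is usually controlled, lay between 5.18 and 20.3 FPKM (median 13.5) with ammonium, against between 28.8 and 35.7 FPKM (median 31.1) without. It was called lower (-1.39 ± 0.20 (SE, adjusted p = 0.0025)), with differences of -2.0 (adjusted p = 5.5e-07) in 15A against CK and -0.77 (adjusted p = 8.7e-04) in 15AN against 15N.

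A high affinity sulfate transporter, XLOC_043285 (sulfate transporter 1.3), ranged from 0.537 to 2.43 FPKM with ammonium (median 1.35), against 2.93 to 7.04 FPKM without (median 4.69). Its log2 difference was -1.28 ± 0.27 (SE, adjusted p = 0.013), although its libraries overlapped under some other scaling. More abundant loci also described as sulfate transporter 1.3 overlapped. These were XLOC_143498 (group means 24.6 to 49.6 FPKM, difference -0.13, adjusted p = 0.49) and XLOC_141463 (17.7 to 30.2 FPKM, -0.11, adjusted p = 0.79). XLOC_100709, a PAPS-reductase-like protein, had 37.7 to 57.3 FPKM (median 51.1) in the 6 libraries with ammonium, against 89.8 to 107 FPKM (median 98.9) in the 6 without. This locus lay lower in every library with ammonium, under every scaling (-0.97 ± 0.10 (SE, adjusted p = 2.9e-04)). XLOC_027065, a cysteine synthase named here after its values were seen, had 24.4, 24.8 and 26.3 FPKM in 15A and 26, 28.5 and 28.4 FPKM in 15AN, against 32.4, 34.9 and 37 FPKM in CK and 52.4, 55 and 56.8 FPKM in 15N, a log2 difference of -0.71 ± 0.10 (SE, adjusted p = 0.0018).

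Other sulfur loci went another way. XLOC_021950, a sulfate transporter 3.5 and also named after its values were seen, had 629.9, 865 and 709.5 FPKM in 15A against 197, 186 and 187 FPKM in CK, and 247, 207 and 216 FPKM in 15AN against 409, 446 and 441 FPKM in 15N. It was higher in 15A than in CK and lower in 15AN than in 15N (1.94 in 15A against CK and -0.95 in 15AN against 15N), so the pooled difference was 0.49 ± 0.44 (SE, adjusted p = 0.49). XLOC_042187, an adenylylsulfate reductase-like 5 protein placed with sulfate reduction by its description alone, did not overlap on the higher side (0.47, adjusted p = 0.013). Whether this protein reduces sulfate was not tested.

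**Figure D5:**
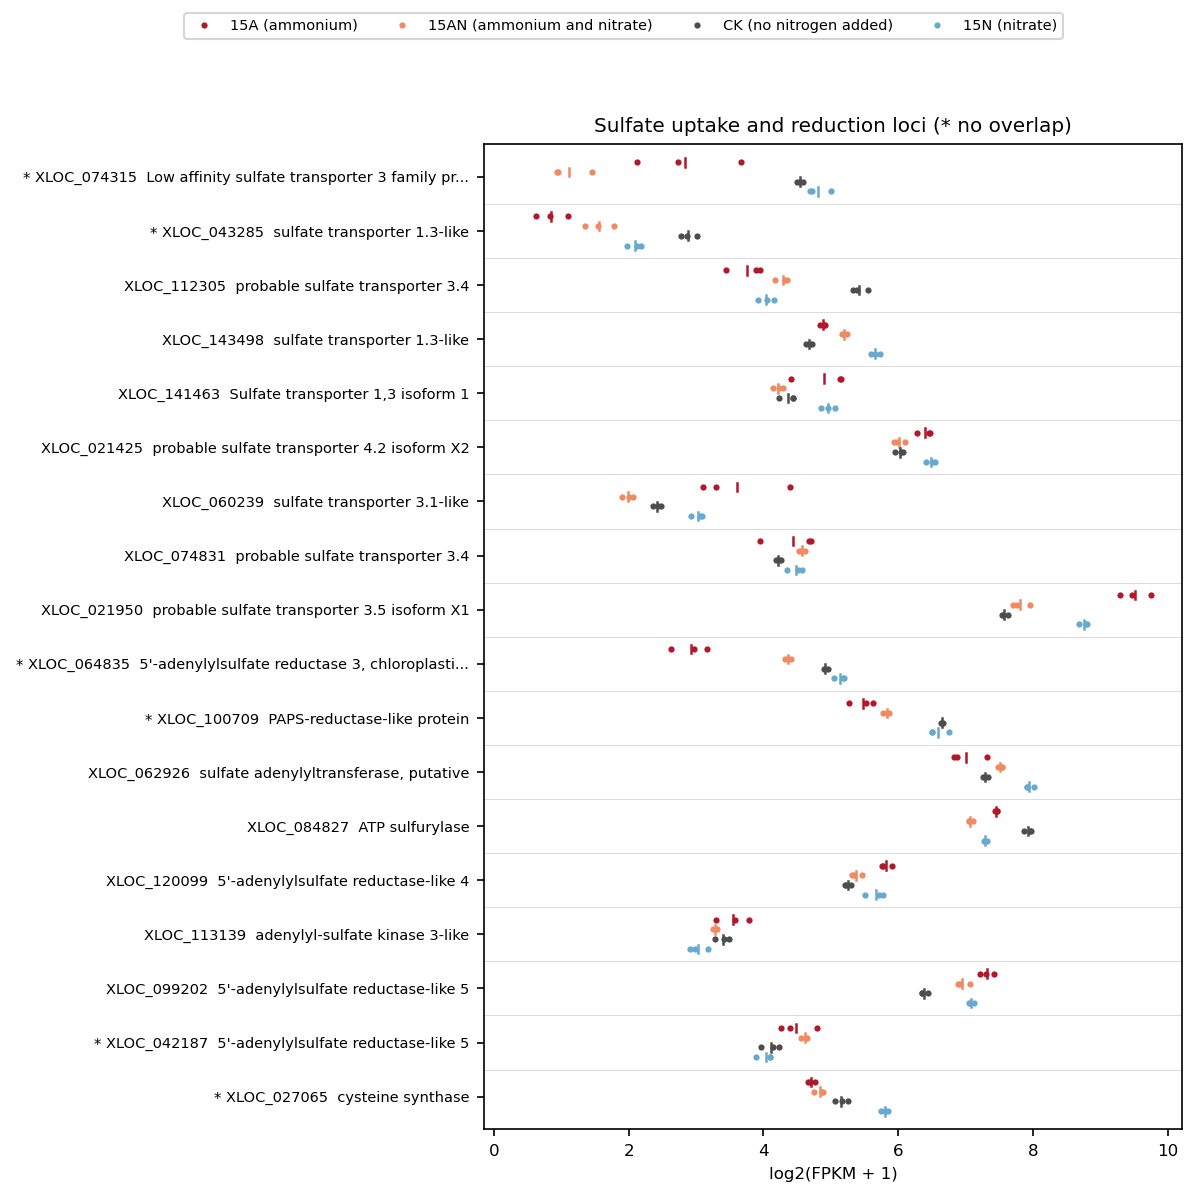
Values of sulfate transporter, sulfate reduction and cysteine synthase loci in log2(FPKM + 1) (x axis), each dot 1 library, each short bar a group mean, 15A and 15AN above CK and 15N. Starred loci do not overlap; XLOC_074315, XLOC_043285, XLOC_064835, XLOC_100709 and XLOC_027065 are lower in every library with ammonium, and the transporter XLOC_021950 is highest in 15A.

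Phosphate and metal genes also held lower members. Of 36 tested loci of phosphate uptake and starvation 3 did not overlap (8.33%, beside 4.39% of all loci tested). XLOC_103414, an SPX domain-containing protein 1, a phosphate sensor whose transcript rises on phosphate starvation in other plants, had 34.1 to 75.4 FPKM (median 46.9) in the 6 libraries with ammonium, against 97.4 to 155 FPKM (median 124) in the 6 without. The fall was called (-1.29 ± 0.09 (SE, adjusted p = 2.2e-05)), held under every scaling and was alike at both nitrate levels (-1.15 in 15A against CK and -1.43 in 15AN against 15N). Of 6 tested SPX domain-containing loci, XLOC_103414 was the only 1 without overlap. The plastid phosphate transporter 2-1, XLOC_061721, was lower too (-0.74, adjusted p = 0.0022), and purple acid phosphatase 18, XLOC_058369, lay higher without passing the test (0.23, adjusted p = 0.08). Of 41 tested loci of iron and metal homeostasis 2 did not overlap (4.88%, near the 4.39% of all loci tested), both lower. XLOC_032221, metal tolerance protein 4, of a family that moves metal ions out of the cytosol, lay between 1.78 and 7.06 FPKM (median 5.25) with ammonium, against between 7.12 and 38.5 FPKM (median 20.6) without. Its call (-1.73 ± 0.48 (SE, adjusted p = 0.046)) rested on -3.28 in 15A against CK and -0.18 in 15AN against 15N, and was lost when any 1 of the 15A or CK libraries or 15AN replicate 2 was left out (adjusted p 0.0531 to 0.104). A metallothionein-like locus, XLOC_116563, ranged from 1876 to 2264 FPKM with ammonium (median 2159), against 2425 to 4792 FPKM without (median 3740.2) (-0.72, adjusted p = 0.015).

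The shares of potassium (4.17%) and proton pump loci (2 of 50, 4%) without overlap were near that of all loci tested (4.39%). XLOC_018646, an inwardly rectifying potassium channel subunit, was the only 1 of 24 tested potassium loci without overlap, and lay between 3.84 and 6.88 FPKM (median 5.31) with ammonium, against between 8.67 and 9.87 FPKM (median 9.34) without. It was lower with ammonium (-0.74, adjusted p = 0.003) under every scaling. XLOC_099174, matched to the potassium transporter KUP6, ranged from 103 to 158 FPKM with ammonium (median 119.9), against 57 to 139.6 FPKM without (median 72.7). Its groups overlapped and it did not pass the test (0.64 ± 0.20 (SE, adjusted p = 0.066)). Among 50 tested loci of proton pumps, XLOC_099274, a V-type ATPase proteolipid, fell (-1.29, adjusted p = 0.011), the difference being -0.49 in 15A against CK and -2.09 in 15AN against 15N, and XLOC_081093, a plasma membrane proton ATPase, had 128 to 137 FPKM (median 133) in the 6 libraries with ammonium, against 111 to 118 FPKM (median 114) in the 6 without (0.21, adjusted p = 0.044). The higher level of this proton pump was small beside its abundance and did not hold under every scaling. Aquaporin TIP3-1, XLOC_070031, a water channel of the storage vacuole, was called higher (1.68, adjusted p = 0.0082) and shares its stretch of scaffold with other loci. Of 19 tested aquaporin loci it was the only 1 without overlap (5.26%, near the 4.39% of all loci tested). Another aquaporin locus was called lower, and the median difference of the list was -0.13.

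In the list of cell wall loosening 2 of 29 tested loci did not overlap, both lower (6.9%, beside 4.39% of all loci tested), with a median log2 difference of -0.13 over the list and a highest of 1.48, at a locus not called. XLOC_117679, a xyloglucan endotransglucosylase/hydrolase, an enzyme that cuts and rejoins wall xyloglucan, had 1.84 to 4.07 FPKM (median 3.25) in the 6 libraries with ammonium, against 16.8 to 32 FPKM (median 24) in the 6 without. Its log2 difference was -2.61 ± 0.19 (SE, adjusted p = 3.5e-05), with -2.11 in 15A against CK and -3.1 in 15AN against 15N. XLOC_014098, EXORDIUM, a wall protein that promotes growth under brassinosteroid in Arabidopsis and lies here at C4953477:6566-7393, lay between 9.73 and 20.3 FPKM (median 13.9) with ammonium, against between 40.9 and 75 FPKM (median 58) without. This was the fall with the smallest adjusted p among the named loci (-1.94 ± 0.06 (SE, adjusted p = 3.6e-08)), and was nearly the same without and with nitrate (-1.95 in 15A against CK and -1.92 in 15AN against 15N). The other 3 of the 4 tested EXORDIUM loci overlapped, with a highest difference of 0.89. A BURP domain protein, XLOC_069184, of a family of secreted plant proteins, ranged from 0.746 to 2.16 FPKM with ammonium (median 1.58), against 5.04 to 41.6 FPKM without (median 23). The BURP locus fell (-2.81 ± 0.43 (SE, adjusted p = 0.0033)), more without nitrate (-4.18 in 15A against CK and -1.45 in 15AN against 15N), and the other 4 of the 5 tested loci of this family overlapped. In contrast, XLOC_105938, an arabinogalactan peptide 3 of the cell surface, had 33 to 79.4 FPKM (median 48.6) in the 6 libraries with ammonium, against 5.24 to 21.5 FPKM (median 7.92) in the 6 without, and was called higher (2.32 ± 0.32 (SE, adjusted p = 0.0019)). Of 11 tested xyloglucan endotransglucosylase loci, the other without overlap was XLOC_093743 (-0.49, adjusted p = 0.0054).

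Carbonic anhydrase XLOC_049370, which interconverts carbon dioxide and bicarbonate and lies at scaffold16555:127139-131988, had 0.413 to 2.93 FPKM (median 1.5) in the 6 libraries with ammonium, against 6.56 to 22.1 FPKM (median 13.9) in the 6 without. The fall was called (-2.46 ± 0.12 (SE, adjusted p = 3.9e-06)) and was of like size at both nitrate levels (-2.27 in 15A against CK and -2.66 in 15AN against 15N). The other 10 of the 11 tested carbonic anhydrase loci overlapped. An acyl-CoA synthetase, XLOC_071096, which activates fatty acids, lay between 9.8 and 46.4 FPKM (median 37.1) with ammonium, against between 106 and 202 FPKM (median 147) without, with a log2 difference of -2.29 ± 0.34 (SE, adjusted p = 0.0026) that was larger with nitrate (-1.44 in 15A against CK and -3.13 in 15AN against 15N). In the list of the TCA cycle and carboxylation 3 of 102 tested loci did not overlap (2.94%, beside 4.39% of all loci tested). Succinate dehydrogenase 5, XLOC_111174, was higher (0.56, adjusted p = 0.0044), and a cytoplasmic aconitate hydratase, XLOC_086221, was lower (-0.91, adjusted p = 0.017).

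Lipid genes included oleosin, the coat protein of oil bodies. XLOC_102826, oleosin 1, had 22 to 39.1 FPKM (median 23.9) in the 6 libraries with ammonium, against 2.03 to 9.38 FPKM (median 5.73) in the 6 without. All libraries with ammonium were above those without, and the difference was called (2.09 ± 0.21 (SE, adjusted p = 2.3e-04)), with 1.78 in 15A against CK and 2.4 in 15AN against 15N. Of 4 tested oleosin 1 loci, XLOC_118751 was also higher (1.5, adjusted p = 0.015), although its libraries overlapped under quantile normalization. XLOC_112823, a locus of 171 nt, was called lower (-2.32, adjusted p = 0.0046) with a slight overlap of the groups, being listed at 0, 0 and 3.33 FPKM in 15A and at 0 in the 15AN libraries, against 3.29 to 14.9 FPKM in the 6 libraries without ammonium. The other, XLOC_047440, did not pass the test (-0.47, adjusted p = 0.48). Of 45 tested loci of fatty acid desaturation 3 did not overlap (6.67%, beside 4.39% of all loci tested). All 3 were higher, by 0.27 to 0.51 on the log2 scale, such as XLOC_032394, an oleate desaturase (0.51, adjusted p = 0.0049). None held under every scaling. The median of the list turned with nitrate, from 0.69 in 15A against CK to -0.28 in 15AN against 15N. The interaction was called in 29 of the 45 loci, beside 22.5% of all loci tested.

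XLOC_069289, described as ACC synthase, the enzyme that makes the ethylene precursor, lies at scaffold21611:16187-19500 and had 70.6 to 102 FPKM (median 89.2) in the 6 libraries with ammonium, against 18.5 to 65.3 FPKM (median 36.4) in the 6 without. It was called higher (1.36 ± 0.30 (SE, adjusted p = 0.017)), with a much larger difference without nitrate (2.33 (adjusted p = 3.1e-08) in 15A against CK and 0.38 (adjusted p = 0.0084) in 15AN against 15N). Of 3 tested loci described as ACC synthase, 2 did not overlap, the other being XLOC_074000 (0.35, adjusted p = 0.018), which overlapped when libraries were scaled to equal totals. In the list of ethylene response, 3 of 74 tested loci did not overlap (4.05%, near the 4.39% of all loci tested) and all were lower. XLOC_029496, ethylene-responsive transcription factor 1B, ranged from 1.07 to 3.61 FPKM with ammonium (median 2.15), against 4.08 to 8.06 FPKM without (median 6.13). Its log2 difference of -1.03 ± 0.16 (SE, adjusted p = 0.0035) lay at the fold used for a call, and fell short of it without 15A replicate 2, 15AN replicate 3, CK replicate 2 or 15N replicate 3. XLOC_118742 (factor 13) and XLOC_028859 (factor 1B) had differences of -0.67 and -0.56.

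Other regulators were as follows. XLOC_145352, transcription factor bHLH137, had 5.74 to 29.1 FPKM (median 11.4) in the 6 libraries with ammonium, against 2.07 to 4.3 FPKM (median 3.16) in the 6 without, and rose at both nitrate levels (1.63 ± 0.18 (SE, adjusted p = 5.0e-04); 2.02 in 15A against CK and 1.24 in 15AN against 15N). A NAC domain protein, XLOC_145072, was called higher (1.18, adjusted p = 0.01), and NAC domain protein 45, XLOC_013067, which acts in phloem sieve cells of Arabidopsis, was lower (-0.69, adjusted p = 2.8e-04). XLOC_107887, WRKY70, a regulator of salicylate and jasmonate defence in Arabidopsis, lay between 14.5 and 16.6 FPKM (median 15) with ammonium, against between 22.4 and 31 FPKM (median 25.8) without (-0.74, adjusted p = 8.1e-04). CONSTANS-LIKE 2, XLOC_070845, a light-regulated zinc finger protein, ranged from 2.71 to 8.72 FPKM with ammonium (median 6.05), against 9.97 to 28.8 FPKM without (median 18). It fell (-1.51 ± 0.32 (SE, adjusted p = 0.014)), mainly without nitrate (-2.34 in 15A against CK and -0.67 in 15AN against 15N). Phytochrome A, XLOC_144849, was higher (0.57, adjusted p = 0.0025), and so was its associated F-box protein, XLOC_012934 (1.16, adjusted p = 0.018). Gibberellin-regulated protein 4, XLOC_145981, was called higher (1.16, adjusted p = 0.0094), and auxin-responsive protein IAA18, XLOC_039018, was lower (-0.67, adjusted p = 0.0012). Of 74 tested auxin loci 1 did not overlap on the higher side and 1 on the lower (2.7%). Of 55 tested WRKY loci there was also 1 on each side (3.64%). The share over all loci tested was 4.39%.

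XLOC_079908, a serine/threonine kinase like At5g41260, had 35 to 41 FPKM (median 38.8) in the 6 libraries with ammonium, against 7.5 to 23.9 FPKM (median 16.8) in the 6 without. The kinase rose (1.38 ± 0.21 (SE, adjusted p = 0.0033)), more without nitrate (2.04 in 15A against CK and 0.72 in 15AN against 15N). Of 136 tested calcium loci, 4 did not overlap on the higher side and 3 on the lower (5.15%), near the 4.39% of all loci tested. The calmodulin-like protein CML30, XLOC_029718, fell (-1.76, adjusted p = 0.013), and CML23, XLOC_050276, was lower (-0.82, adjusted p = 0.0028). XLOC_061886, a calcium-dependent protein kinase, fell as well (-1.13, adjusted p = 0.014), by 0.91 without 15A replicate 2, under the fold used for a call. XLOC_042418, a plasma membrane calcium pump, was higher (0.91, adjusted p = 0.015), by 0.28 in 15A against CK and 1.53 in 15AN against 15N. Cysteine-rich receptor-like kinase 10, XLOC_083900, fell (-1.31, adjusted p = 0.0014).

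Peroxidases, thioredoxins and superoxide defence held 13 loci without overlap of 110 tested (11.8%, beside 4.39% of all loci tested), 9 higher and 4 lower. By the adjusted p alone 9 loci of the list were higher and 9 lower, and its median log2 difference was -0.03. Glutathione peroxidase 2, XLOC_073890, which reduces lipid peroxides, had 811 to 1121 FPKM (median 931) in the 6 libraries with ammonium, against 434 to 571 FPKM (median 472) in the 6 without. It passed the test with a difference just under the fold used for a call (0.97 ± 0.11 (SE, adjusted p = 7.3e-04); 0.71 in 15A against CK and 1.23 in 15AN against 15N), and overlapped under some other scaling. XLOC_010300, peroxidase 51, lay between 27.5 and 45.8 FPKM (median 32.9) with ammonium, against between 6.6 and 26.6 FPKM (median 16.2) without. Its pooled difference (1.28 ± 0.35 (SE, adjusted p = 0.041)) came from 15A against CK (2.42 in 15A against CK and 0.14 in 15AN against 15N), and the call was lost when any 1 of the 15A or CK libraries was left out (adjusted p 0.0743 to 0.0945). A lignin-forming anionic peroxidase, XLOC_035603, ranged from 94.4 to 121 FPKM with ammonium (median 115), against 60.7 to 86.6 FPKM without (median 68.6) (0.67, adjusted p = 0.0026). Among the others, chosen after their values were seen, were the iron superoxide dismutase 3 loci XLOC_069201 (0.40, adjusted p = 0.0064) and XLOC_122308 (0.40, adjusted p = 0.004), both higher. Of the 9 higher loci 2 held under every scaling, and of the 4 lower ones 1.

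In the phenylpropanoid and lignin list 8 of 81 tested loci did not overlap (9.88%, beside 4.39% of all loci tested), 5 higher and 3 lower. The median difference of the list was -0.03. XLOC_056163, phenylalanine ammonia-lyase, the entry enzyme of the pathway, had 4.78 to 8.74 FPKM (median 6.21) in the 6 libraries with ammonium, against 9.32 to 19.2 FPKM (median 14.6) in the 6 without. It fell (-1.05 ± 0.20 (SE, adjusted p = 0.0095)), by -1.68 in 15A against CK and -0.42 in 15AN against 15N, and the pooled difference stayed between -0.97 and -1.0 when any 1 of the 15A or CK libraries was left out, which ended the call. Caffeoylshikimate esterase, XLOC_121438, which makes caffeate for lignin, lay between 17.3 and 20.5 FPKM (median 19.5) with ammonium, against between 27.9 and 36.5 FPKM (median 30.1) without. This enzyme was lower under every scaling (-0.65 ± 0.08 (SE, adjusted p = 7.4e-04)). Cinnamoyl-CoA reductase, XLOC_044440, the first step given over to lignin, ranged from 77.3 to 138 FPKM with ammonium (median 106), against 56.6 to 70.4 FPKM without (median 62.6) (0.70, adjusted p = 0.0026). Of 32 tested loci of triterpene saponin synthesis, which makes the saponins of this root, none lacked overlap.

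Defence proteins were mixed. XLOC_068741, a pathogenesis-related PR-1 type protein, had 6.29 to 22.6 FPKM (median 14.7) in the 6 libraries with ammonium, against 25.4 to 88 FPKM (median 53.2) in the 6 without. Its difference (-1.75 ± 0.44 (SE, adjusted p = 0.03)) came from the pair with nitrate (-0.32 in 15A against CK and -3.17 in 15AN against 15N), and leaving out any 1 of the 15AN or 15N libraries ended the call (adjusted p 0.0553 to 0.0626). XLOC_062925, like the major allergen Pru ar 1 and so of the PR-10 family, lay between 2.09 and 7.69 FPKM (median 3.63) with ammonium, against between 9.19 and 23.3 FPKM (median 16.8) without. It fell alike at both nitrate levels (-1.8 ± 0.11 (SE, adjusted p = 1.1e-05); -1.67 in 15A against CK and -1.93 in 15AN against 15N). XLOC_044178, described as pathogenesis-related protein 10, was called higher (1.21, adjusted p = 0.0033), and snakin-2, XLOC_033935, an antimicrobial peptide, ranged from 116 to 189 FPKM with ammonium (median 141), against 64.8 to 102 FPKM without (median 83.7) (0.76, adjusted p = 0.011). Phloem protein 2-2, XLOC_039077, a lectin of sieve elements, had 6.2 to 17.7 FPKM (median 12.3) in the 6 libraries with ammonium, against 22.5 to 74.8 FPKM (median 46.4) in the 6 without. It fell (-1.77 ± 0.35 (SE, adjusted p = 0.01)), more without nitrate (-2.87 in 15A against CK and -0.68 in 15AN against 15N). Of 10 tested phloem protein 2 loci, 1 did not overlap on the lower side and 1 on the higher. The higher locus, XLOC_062454, held under every scaling. The (S)-reticuline oxidase-like locus XLOC_084537, of the berberine bridge enzyme family, rose (1.23 ± 0.17 (SE, adjusted p = 0.0019)).

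The next loci were named for the size of their difference or the width of their gap, and belong to no common gene list. XLOC_065171, a membrane-anchored ubiquitin-fold protein 3, which tethers ubiquitin-conjugating enzymes to the plasma membrane, had 6.13 to 29.8 FPKM (median 19) in the 6 libraries with ammonium, against 1.35 to 3.08 FPKM (median 2.16) in the 6 without. The difference was called (2.43 ± 0.33 (SE, adjusted p = 0.0017)), and other assembled loci overlap its span. XLOC_069561, HRD3A, a component of the ubiquitin ligase that clears misfolded proteins from the endoplasmic reticulum, lay between 19.5 and 36.5 FPKM (median 25.8) with ammonium, against between 6.84 and 15.8 FPKM (median 10.8) without (1.27 ± 0.19 (SE, adjusted p = 0.003)). XLOC_060992, an aspartic proteinase, ranged from 652 to 1560.3 FPKM with ammonium (median 1027), against 119 to 647 FPKM without (median 619). It was called (1.33 ± 0.34 (SE, adjusted p = 0.033)), but the call was lost in 7 of the 12 fits that left out 1 library, namely each 15A library, 15AN replicate 3, CK replicate 1, and 15N replicates 1 and 2 (adjusted p 0.0517 to 0.0773). Its libraries overlapped under each of the 3 other scalings, and with equal library totals it did not pass the test. XLOC_083698, nucleobase-ascorbate transporter 6 at scaffold25870:62254-94305, had 48.3 to 53.6 FPKM (median 49.8) in the 6 libraries with ammonium, against 21.4 to 24.7 FPKM (median 23.2) in the 6 without. Its libraries were tight within the groups, with 1.05 in 15A against CK and 1.13 in 15AN against 15N and a pooled difference of 1.09 ± 0.06 (SE, adjusted p = 7.3e-06). A pentatricopeptide repeat protein, XLOC_067763, of a family that processes organelle RNA, rose (1.47 ± 0.16 (SE, adjusted p = 3.9e-04)), more with nitrate (1.06 in 15A against CK and 1.89 in 15AN against 15N).

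Of the named loci, the largest difference was that of XLOC_000712, which was matched to 28S ribosomal RNA of another organism by nucleotide similarity and spans only 86 nt. It was listed at 0 in all 6 libraries with ammonium, against 44.5 to 453 FPKM (median 104) in the 6 without. No fold is given for it, since an exact 0 can be a failed estimate at so short a locus. Over all members, 9 were listed at 0 in every library without ammonium and 4 in every library with it. All 310 loci described as of other organisms or as ribosomal RNA (30 tested) summed to 3742 to 11161 FPKM with ammonium and 5729 to 15236 FPKM without.

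The other members were spread thinly over the gene lists. Over the 45 lists, the share of tested loci without overlap ran from 0 to 16.7%, and in cytosolic ribosomal proteins, the largest list with 225 tested loci, it was 1.78%. A described protein was given for 656 of the 991 members (66.2%), beside 61.8% of all loci tested, and 31 (3.13%) were shorter than 300 nt, beside 8.42%. At the margin of the rule, XLOC_140279, a glycosyltransferase, was the nearest inside on the higher side, with a gap of 0.000264 on the log2 scale between its lowest library with ammonium and its highest without. XLOC_030559, an MO25-like protein, was the nearest outside, with 259 to 273 FPKM with ammonium and 216 to 259 FPKM without. On the lower side, XLOC_115819, an enolase-phosphatase, was just inside, with a gap of 0.000508, and the undescribed XLOC_024195, at or near 0 in all libraries with ammonium and in 3 without, was just outside.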

How the data were processed

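The authors aligned reads of ribosome-depleted libraries to the P. notoginseng genome (build not given in the sources used here) with TopHat2 2.0.13, assembled transcripts with Cufflinks 2.2.1 and computed FPKM with Cuffnorm 2.2.1. The deposited table gives FPKM for 146330 loci with positions and database descriptions. FPKM were used as the authors scaled them, with 1 added before log2. The fit was made with limma 3.58.1 in R 4.3.3 (eBayes with trend, two-sided, Benjamini-Hochberg over 22592 loci), with ammonium and nitrate as terms for the main effect and 4 group means for the comparisons within a nitrate level and the interaction. A count model was not used because FPKM are not counts. Without counts or depth, precision follows from the spread of the libraries about the fit. For the main effect this includes ammonium differences that vary with nitrate. The method was tested on simulated data. Members and the 45 gene lists (patterns in the descriptions) were chosen with earlier results of these data known, and some patterns were trimmed after descriptions were read. Named loci are the 12 largest described differences and 5 widest gaps in each direction with a mean of at least 20 FPKM, up to 4 members per list, the 3 most abundant loci of each nitrogen and potassium list, the 4 largest interaction loci in each direction and the loci at the margin. Overlapping loci may share reads, and strand use in counting is not given. Alternatives covered the pseudocount, filter, length, scaling, covariates, thresholds and each library left out.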

Additional observations from a re-analysis of the deposited data

Results flagged for a closer look

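Among the 25 described loci with the largest differences or the widest gaps, 15 had an ammonium difference that itself differed with nitrate, by the interaction in limma (adjusted p under 0.05). The values here are the difference of 15AN against 15N less that of 15A against CK, on the log2 scale. Loci higher with ammonium that rose less in the presence of nitrate were bHLH137 XLOC_145352 (-0.78), the kinase XLOC_079908 (-1.32), ACC synthase XLOC_069289 (-1.94), peroxidase 51 XLOC_010300 (-2.28), the reticuline oxidase-like XLOC_084537 (-0.79) and ferredoxin XLOC_115759 (-0.91). The pentatricopeptide repeat protein XLOC_067763 rose more with nitrate (0.83). Loci lower with ammonium that fell less with nitrate were the BURP protein XLOC_069184 (2.72), phloem protein 2-2 XLOC_039077 (2.2), metal tolerance protein 4 XLOC_032221 (3.1) and CONSTANS-LIKE 2 XLOC_070845 (1.67). Those that fell more with nitrate were sulfate transporter 3 XLOC_074315 (-1.98), xyloglucan endotransglucosylase XLOC_117679 (-0.99), acyl-CoA synthetase XLOC_071096 (-1.69) and PR-1 XLOC_068741 (-2.85). In the same loci, 50 comparisons for 1 library far from the rest of its 6 flagged none. The loci were chosen for lack of overlap, and each set of 6 pools 2 treatments, which can widen its spread. The absence of flags can therefore not show that no library stood apart.

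The largest interactions over all described loci with a mean of 20 FPKM lay outside the members. Several were short loci at 0 in some libraries, such as the catalase-1 locus XLOC_061650 of 128 nt, for which 15A minus CK was 1.05 and 15AN minus 15N -6.74. The metalloendoproteinase XLOC_080826 differed by 2.75 in 15A against CK and -3.94 in 15AN against 15N, and the phytosulfokine receptor 1 locus XLOC_005192 of 114 nt by -4.13 in 15A against CK and 5.26 in 15AN against 15N.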

How the results depend on the processing

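Counts within 1.5 times of those reported were found in 199 of 232 recalculations. With a pseudocount of 5, the main effect had 98 higher and 103 lower calls, 15A against CK 1128 and 776, 15AN against 15N 346 and 457, and the interaction 1327 higher. With a mean of 10 FPKM required, 15A against CK had 981 lower and the interaction 1465 higher. With no such filter, 630 loci did not overlap on the lower side, 15A against CK had 2443 lower and the interaction 3692 higher. Under scaling to equal library totals, the main effect had 136 higher, 255 loci did not overlap on the higher side, 15A against CK had 624 higher and 5009 lower, 15AN against 15N 1042 higher and the interaction 8197 higher and 951 lower; higher loci were 30.2% of the calls there, against 49.9% as deposited. The main effect had 124 higher and 108 lower calls without a nitrate term, 442 and 469 from 4 group means, 123 and 111 at an adjusted p under 0.01, and 1363 and 919 with no minimum difference. With no minimum difference, 15A against CK had 6916 and 4640, 15AN against 15N 2801 and 3341, and the interaction 4560 and 6306. The cause of the shifts with scaling was not tested. Leaving out 1 library gave 184 to 224 higher and 178 to 227 lower calls, and 644 to 831 higher and 397 to 540 lower loci without overlap, where fewer libraries must be separated. Of 3328 recalculations of the 140 named loci, 3213 kept their side of the thresholds, 84 lost it and 31 gained it. In 19 of them, at 9 loci of which 1 is a member, the difference changed sign, each with an adjusted p over 0.05, and no called difference changed sign. Libraries with the same replicate number did not deviate together (r -0.0998 to 0.0505 over 18 pairs), and with the replicate number as a block the main effect had 179 higher and 165 lower calls.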

Other observations

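Other members outside the naming rule, all chosen here after their values were seen, included genes of oxygen and stress signalling. XLOC_021416, described as 2-aminoethanethiol dioxygenase, a family whose plant members oxidize N-terminal cysteine in low-oxygen signalling, had 4.36 to 7.9 FPKM (median 5.33) in the 6 libraries with ammonium, against 0.17 to 2.16 FPKM (median 0.71) in the 6 without. It was called higher (1.86 ± 0.19 (SE, adjusted p = 2.6e-04)), and XLOC_139035 of the same description lay between 46 and 73.3 FPKM (median 62.5) with ammonium, against between 33.2 and 42.3 FPKM (median 36) without (0.69, adjusted p = 0.0083). Of 7 tested loci of this description, these 2 did not overlap. The zinc finger protein ZAT12, XLOC_005212, a stress regulator in Arabidopsis, ranged from 0.37 to 1.81 FPKM with ammonium (median 1.19), against 6.17 to 14.7 FPKM without (median 9.8) (-2.39, adjusted p = 1.1e-05). Syntaxin-121, a membrane fusion protein that also acts on potassium channels in Arabidopsis, was lower at XLOC_109719 (-1.49, adjusted p = 0.0044) and XLOC_036085 (-0.83, adjusted p = 0.0021), 2 of 3 tested loci. XLOC_087954 and XLOC_007344, described as the uric acid degradation protein TTL, which makes allantoin from the products of urate breakdown, had differences of -0.94 and -0.89, and the third tested locus overlapped.

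Starch synthesis had members in both directions. XLOC_008010, glucose-1-phosphate adenylyltransferase large subunit 1, the enzyme that makes ADP-glucose, had 5.35 to 18 FPKM (median 11.6) in the 6 libraries with ammonium, against 0.781 to 3.75 FPKM (median 2.1) in the 6 without (1.97, adjusted p = 2.8e-06). XLOC_034857, large subunit 3 of the same enzyme, was lower (-0.74, adjusted p = 0.0014). The other 5 of the 7 tested loci of this enzyme overlapped. Vacuolar-processing enzyme, XLOC_090140, a protease of vacuole maturation, lay between 81.7 and 146 FPKM (median 107) with ammonium, against between 183 and 304 FPKM (median 248) without (-1.2, adjusted p = 0.0022). XLOC_057013, peroxisomal membrane protein 11A, which acts in peroxisome division, was higher (2.07, adjusted p = 0.0034).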
